A study of Mus musculus with 12 samples.

Results

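A set of 9 genes used as readouts of cellular senescence and of arrest with a secretory programme was followed in 12 whole-kidney libraries. They were Cdkn2a, Cdkn2b, Cdkn1b, Cdkn1c, Lmnb1, Igfbp3, Igfbp7, Glb1 and Il6, and they were found in the deposited table by their NCBI Gene numbers, as 9 of the 27179 genes listed. The kidneys came from 4 groups of 3 mice each, aged 8 to 12 weeks by the labels and of mixed strain background. Wild-type mice were given saline or cisplatin, and mice labelled γGT1-Cre;Fan1-/- (FAN1KO) were given saline or cisplatin. Cisplatin, a platinum drug that crosslinks DNA, was given at 2 mg/kg once a week for 5 weeks. The γGT1 promoter drives Cre in proximal tubule cells, so the deletion does not cover the other cells of a whole kidney, and FAN1 is a nuclease of DNA crosslink repair. Every difference below is one of whole-kidney RNA, in which fewer cells of a type and less RNA per cell cannot be told apart.

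Senescence is a lasting exit from the cell cycle that is seen in kidney tubules after DNA damage. Inhibitors of cyclin-dependent kinases (CDKs) impose the arrest. Those of the INK4 family (Cdkn2a, Cdkn2b, Cdkn2c and Cdkn2d) bind CDK4 and CDK6, and those of the CIP/KIP family (Cdkn1a, Cdkn1b and Cdkn1c) bind cyclin and CDK complexes more broadly. Senescent cells are known for losing lamin B1 (Lmnb1), for a raised lysosomal beta-galactosidase (Glb1), and for secreting IGF-binding proteins and cytokines such as IL-6.

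Cdkn2a and Cdkn2b lie side by side on chromosome 4, 11669 bp apart, and both are read from the minus strand. Cdkn2a has separate starts for the p19Arf and the p16Ink4a transcripts, which the table pools under 1 gene number. The 250 bases before each of these starts, and before a start of Igfbp3, are shown (RefSeq starts, build GRCm38.p6, 5′ to 3′ on the minus strand). Cdkn2a and Cdkn2b were picked because they were higher in every cisplatin-treated FAN1KO kidney than in the other 9 kidneys. Igfbp3 was picked as the member that fell with cisplatin in FAN1KO kidneys. Its window lies inside the annotated gene (chr11:7206086-7215498), so the start that it precedes is an internal one. Capitals mark matches to 5 motifs searched on both strands, a GC box, an AP-1 element, a TATA element, an E2F element and a cyclic AMP response element (CRE), and no capital lies in more than 1 motif.
Cdkn2b, chr4:89311033-89311282: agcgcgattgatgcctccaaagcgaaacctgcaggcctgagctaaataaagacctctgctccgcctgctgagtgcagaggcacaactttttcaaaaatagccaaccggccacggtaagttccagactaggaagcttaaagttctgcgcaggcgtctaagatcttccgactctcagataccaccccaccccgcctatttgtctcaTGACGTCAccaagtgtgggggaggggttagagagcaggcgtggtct
Cdkn2a, start of p19Arf, chr4:89294620-89294869: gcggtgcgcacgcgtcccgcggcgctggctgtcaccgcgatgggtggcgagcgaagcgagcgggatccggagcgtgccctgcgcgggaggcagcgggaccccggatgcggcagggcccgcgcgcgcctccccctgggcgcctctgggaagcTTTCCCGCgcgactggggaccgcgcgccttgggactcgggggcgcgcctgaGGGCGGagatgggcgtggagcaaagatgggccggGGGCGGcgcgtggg
Cdkn2a, start of p16Ink4a, chr4:89282193-89282442: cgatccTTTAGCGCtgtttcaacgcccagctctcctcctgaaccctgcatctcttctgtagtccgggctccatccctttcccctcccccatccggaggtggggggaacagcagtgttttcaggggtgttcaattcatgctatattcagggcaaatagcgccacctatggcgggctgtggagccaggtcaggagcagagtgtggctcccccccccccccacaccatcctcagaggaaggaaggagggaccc
Igfbp3, chr11:7213924-7214173: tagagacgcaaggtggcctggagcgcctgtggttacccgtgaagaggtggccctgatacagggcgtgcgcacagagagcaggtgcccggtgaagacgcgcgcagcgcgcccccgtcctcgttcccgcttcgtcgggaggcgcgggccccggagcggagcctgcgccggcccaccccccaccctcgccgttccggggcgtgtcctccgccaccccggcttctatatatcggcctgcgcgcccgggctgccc
The Cdkn2b window held 1 CRE, spelled TGACGTCA, 46 to 39 bases before the start. That motif was added after the sequence had been read, and 1.55% of all 32851 promoter windows of this length held it. The p19Arf window held 2 GC boxes and 1 E2F element, and the p16Ink4a window held 1 E2F element. The GC box was searched as GGGCGG and was in 32.7% of all windows. The E2F element was searched as TTTNNCGC and was in 4.28% of them. The Igfbp3 window held none of the 5 motifs as they were spelled for the search. The AP-1 element was searched as TGANTCA, which 6.75% of all windows held. The TATA element was searched as TATAAA, which 12.4% of all windows held, and neither of these last was in any of the 4 windows shown. Other spellings were not searched, so the tatatat near the end of the Igfbp3 window is not marked, and no window is shown to lack a TATA box. Of the 9 genes, 7 had a promoter entry, and Cdkn1c and Lmnb1 had none. No stretch of 25 bases was shared between the annotated transcripts of Cdkn2a and Cdkn2b.

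Values are TPM, the deposited measure of transcript abundance, which is scaled by transcript length and to the same total in every library. The whole reads behind them, recovered from the low values, ran from 37201916 to 82947186 per library. Fan1 itself did not separate the genotypes. It ran from 1.98 to 3.80 TPM in wild-type saline kidneys, from 1.17 to 2.28 in FAN1KO kidneys given saline, from 2.33 to 3.57 in wild-type and from 1.55 to 3.51 in FAN1KO kidneys given cisplatin, so it gave no check of the genotype labels. Counts over the whole gene also take in cells outside the proximal tubule. Markers of proximal tubule, thick ascending limb, distal tubule, collecting duct and podocyte were above 0 in every library, as the whole-kidney label implies. In each group, 1 library was high in Y-linked RNA. The mean log2 level of the Y-linked genes was 3.46 to 3.93 in these 4 libraries and 0.00612 to 0.104 in the other 8, and the labels do not give the sex of each mouse. The libraries concerned were wild-type saline replicate 3, FAN1KO saline replicate 1, wild-type cisplatin replicate 1 and FAN1KO cisplatin replicate 3. The median of all 14972 genes tested was 0.24 on the log2 scale between the genotypes under cisplatin (FAN1KO minus wild-type) and 0.37 in cisplatin against saline FAN1KO kidneys, and it was -0.0039 and 0.0028 under median-ratio scaling. Differences are therefore given beside this shift.

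**Figure D1:**
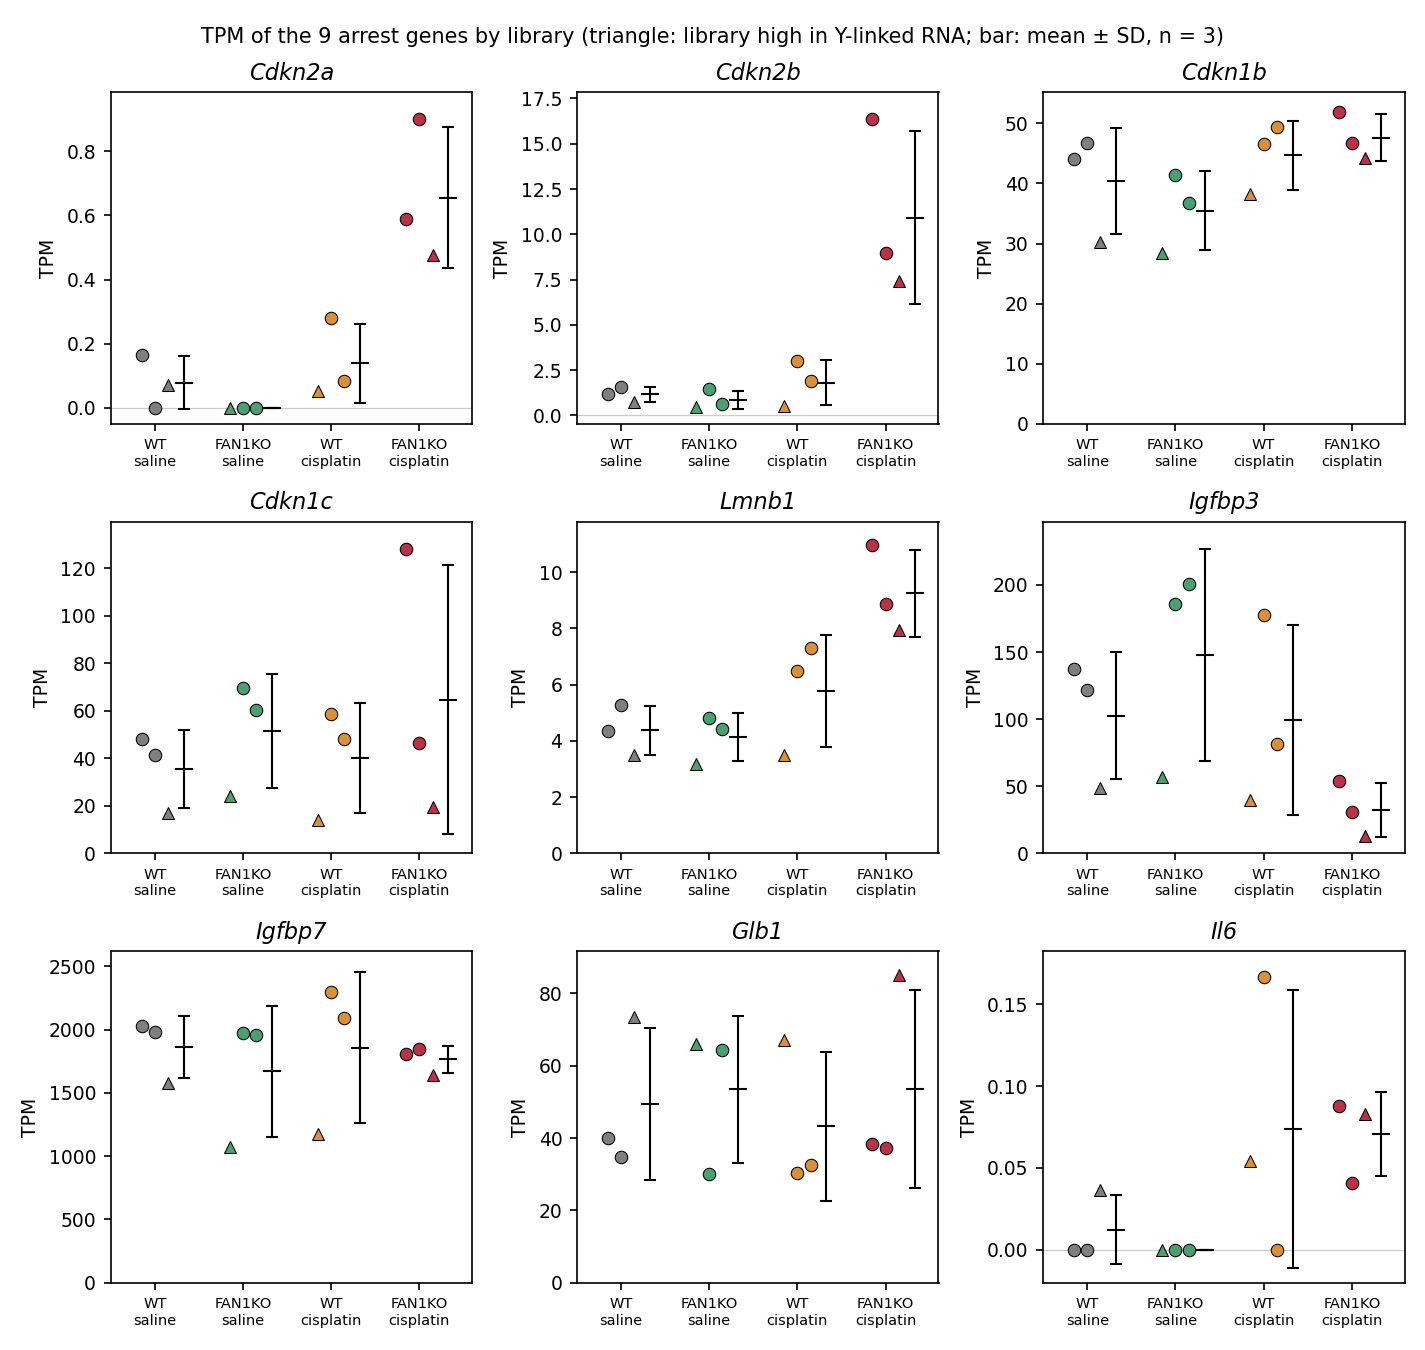
TPM of each of the 9 genes (vertical axes, linear, each from 0 or below) in the 12 libraries, by group. Circles and triangles are single libraries, triangles mark the library high in Y-linked RNA, and the bar beside them is the mean ± SD of the 3 libraries. The 3 FAN1KO cisplatin libraries lie above the other 9 for Cdkn2a, Cdkn2b and Lmnb1. They do so for 29% of all genes tested and for 22.2% of all genes above 0 in any library.

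Cdkn2b, which encodes the CDK4 and CDK6 inhibitor p15Ink4b, was at 1.19, 1.58 and 0.731 TPM in wild-type saline kidneys and at 0.492, 1.44 and 0.632 TPM in FAN1KO saline kidneys. Under cisplatin it was at 0.531, 2.99 and 1.89 TPM in wild-type kidneys and at 16.4, 8.96 and 7.45 TPM in FAN1KO kidneys. The lowest cisplatin-treated FAN1KO kidney stood above the highest of the other 9, which overlapped with one another. All 3 lay above the other 9 for 29% of all genes tested. Of the 7 members in the main test, Cdkn2b was the only one with a call in both comparisons that involve the cisplatin-treated FAN1KO kidneys and in the test of whether the cisplatin response differed between the genotypes. The group mean of 10.9 ± 4.78 TPM (SD, n = 3) in cisplatin-treated FAN1KO kidneys was 6.06 times that of cisplatin-treated wild-type kidneys, 1.80 ± 1.23 TPM, and 12.8 times that of FAN1KO saline kidneys, 0.855 ± 0.513 TPM. On the log2(TPM + 1) scale, which understates the change of a low gene, Cdkn2b rose by 2.12 (SE 0.38, limma, Benjamini-Hochberg adjusted p = 0.00397) between the genotypes under cisplatin and by 2.65 (SE 0.38, adjusted p = 0.000674) with cisplatin in FAN1KO kidneys. In wild-type kidneys the difference with cisplatin was 0.28 (SE 0.38, adjusted p = 1). The difference between these 2 responses was 2.36 (SE 0.53, adjusted p = 0.0326). That last call was lost without any 1 of 8 of the 12 libraries, with adjusted p up to 0.0819, namely replicates 1 and 2 of wild-type saline, 1 and 3 of FAN1KO saline, 1 and 3 of wild-type cisplatin and 1 and 2 of FAN1KO cisplatin. Cdkn2b overlaps the gene Gm12610 and the strandedness of the counts is not stated, so reads of the pair cannot be told apart.

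Cdkn2a, which encodes p16Ink4a and p19Arf, was far lower and never reached 1 TPM. The libraries held 6, 0 and 4 reads of it in wild-type saline kidneys, none in the 3 FAN1KO saline kidneys, 2, 7 and 2 in wild-type kidneys under cisplatin, and 14, 23 and 12 in FAN1KO kidneys under cisplatin. These reads correspond to 0.165, 0 and 0.0703 TPM, to 0, to 0.0521, 0.279 and 0.0842 TPM, and to 0.589, 0.902 and 0.477 TPM. All 3 cisplatin-treated FAN1KO kidneys lay above the other 9, as with Cdkn2b, and 22.2% of all genes above 0 in any library did so. The mean of 0.656 ± 0.220 TPM was 4.74 times that of cisplatin-treated wild-type kidneys, 0.139 ± 0.123 TPM. In FAN1KO saline kidneys 0 reads over the group allow up to 0.0338 TPM (3 reads over the 3 libraries). The pooled value of cisplatin-treated FAN1KO kidneys, 0.658 TPM from 49 reads, was 19.5 times that limit. This limits the saline side only and leaves out the spread between mice. The gene did not pass the filter of at least 1 TPM in at least 3 libraries and so was not in the main test. Without that filter, limma gave a difference of 0.54 (SE 0.10, adjusted p = 0.00701) between the genotypes under cisplatin and of 0.72 (SE 0.10, adjusted p = 0.001) with cisplatin in FAN1KO kidneys. The cisplatin response differed between the genotypes by 0.64 (SE 0.14, adjusted p = 0.0379). In that fit 16.8%, 28.4% and 4.23% of 22557 genes were called in these 3 tests. The 3 FAN1KO saline libraries, all at 0, add no spread to the SE that the groups share. Every other fit kept the filter, so these Cdkn2a calls were not checked under another scaling, with a covariate or with a library left out. The two-sided exact permutation test gave p = 0.1 for Cdkn2a and for Cdkn2b in both comparisons, which is the smallest p that 3 against 3 libraries allow. Intervals and floors on reads cover counting error only, since amplified reads are not independent molecules.

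The CIP/KIP members behaved otherwise. Cdkn1b, which encodes p27Kip1, a brake on CDK2 that is set mainly by protein turnover, was at 44.0, 46.8 and 30.3 TPM in wild-type saline kidneys and 28.4, 41.3 and 36.7 TPM in FAN1KO saline kidneys. Under cisplatin it was at 38.2, 46.6 and 49.3 TPM in wild-type kidneys and 51.9, 46.7 and 44.3 TPM in FAN1KO kidneys. The genotypes overlapped under both treatments, while the cisplatin-treated FAN1KO kidneys lay above the saline FAN1KO kidneys. That difference was 0.43 (SE 0.18, adjusted p = 0.0857) beside a median of 0.37 over all genes, and it was 0.01 under median-ratio scaling. It passed the threshold without wild-type saline replicate 3 (adjusted p = 0.0415), with the Y-linked level as a covariate (0.44, adjusted p = 0.00374, where 61.1% of all genes were called) and among the 8 libraries low in Y-linked RNA (0.33, adjusted p = 0.0268, where 52.8% were called). Between the genotypes under cisplatin it was 0.09 (SE 0.18, adjusted p = 0.735), turning to -0.18 under median-ratio scaling.

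Cdkn1c, which encodes p57Kip2 and marks resting podocytes in the adult kidney, varied more within groups than between them. It was at 47.9, 41.4 and 16.9 TPM in wild-type saline kidneys and 24.3, 69.7 and 60.4 TPM in FAN1KO saline kidneys. With cisplatin the values were 13.9, 58.4 and 47.9 TPM for the wild-type and 128, 46.5 and 19.3 TPM for the FAN1KO group. The lowest value of each group was in the library high in Y-linked RNA, and the single value of 128 TPM sat well above the rest. The difference between genotypes under cisplatin was 0.51 (SE 0.73, adjusted p = 0.645), and without the 128 TPM library, FAN1KO cisplatin replicate 1, it was -0.18. The SE of 0.73 is the widest of the 7 tested members, and even a difference well above this spread could go uncalled. Igfbp3, at -1.54 with an SE of 0.69, did not pass the threshold in the same comparison. The summed TPM of 5 podocyte markers ran from 47.3 to 152 in wild-type saline, 93.1 to 208 in FAN1KO saline, 64.5 to 178 in wild-type cisplatin and 38.7 to 216 in FAN1KO cisplatin kidneys, none of them at 0 and none called between the genotypes under cisplatin. Their part in the Cdkn1c levels was not tested.

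Lmnb1, which encodes lamin B1 of the inner nuclear membrane, had no called fall in any comparison. It was at 4.33, 5.27 and 3.50 TPM in wild-type saline kidneys and 3.19, 4.80 and 4.43 TPM in FAN1KO saline kidneys. With cisplatin the values were 3.51, 6.49 and 7.29 TPM for the wild-type and 11.0, 8.85 and 7.95 TPM for the FAN1KO group. The 3 cisplatin-treated FAN1KO kidneys were the highest of the 12, as they were for 29% of all genes tested. Lmnb1 rose by 1.00 (SE 0.24, adjusted p = 0.00939) with cisplatin in FAN1KO kidneys, from 4.14 ± 0.842 to 9.26 ± 1.55 TPM (SD, n = 3). Under median-ratio scaling this was 0.63 (adjusted p = 0.014). Against cisplatin-treated wild-type kidneys the difference of 0.64 (SE 0.24, adjusted p = 0.0820) did not pass the threshold in the main fit. It passed with the Y-linked level as a covariate (0.65, adjusted p = 0.00334, where 48.9% of all genes were called), among the 8 libraries low in Y-linked RNA (0.46, adjusted p = 0.0475, where 36.7% were called) and in a voom fit of the recovered reads (0.78, adjusted p = 0.0487, where 24.7% were called).

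Lamin B1 expression is known to follow cell division, so proliferation markers were read beside it. All 9 tested genes of a 10-gene list of proliferation markers were called higher between the genotypes under cisplatin, where 19.6% of all genes were. Under median-ratio scaling 6 of 9 were called higher. Their median difference was 1.03, beside 0.24 over all genes. Their summed TPM ran from 26.6 to 38.3 in wild-type saline, 37.3 to 40.9 in FAN1KO saline, 35.0 to 49.9 in wild-type cisplatin and 86.0 to 104 in FAN1KO cisplatin kidneys. Cdk1, the mitotic kinase, rose by 1.48 (SE 0.24, adjusted p = 0.00254), from 1.01 ± 0.502 to 4.53 ± 0.649 TPM. The part of dividing cells in the Lmnb1 difference was not tested.

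Igfbp3, an IGF-binding protein of the circulation, was at 138, 122 and 48.5 TPM in wild-type saline kidneys and 56.7, 186 and 201 TPM in FAN1KO saline kidneys. Under cisplatin it was at 39.9, 178 and 81.2 TPM in wild-type kidneys and 53.6, 30.7 and 13.2 TPM in FAN1KO kidneys. The cisplatin-treated FAN1KO kidneys lay below all 3 saline FAN1KO kidneys but overlapped with the cisplatin-treated wild-type kidneys. Igfbp3 fell by 2.15 on the log2 scale (SE 0.69, adjusted p = 0.0306) with cisplatin in FAN1KO kidneys, from 148 ± 79.2 to 32.5 ± 20.2 TPM, and by 2.57 under median-ratio scaling (adjusted p = 0.00934). The call was lost without replicate 2 or 3 of FAN1KO saline (adjusted p = 0.0840 and 0.0951) and without replicate 2 or 3 of FAN1KO cisplatin (adjusted p = 0.0674 and 0.0962). Against cisplatin-treated wild-type kidneys the difference was -1.54 (SE 0.69, adjusted p = 0.13). With the Y-linked covariate it was -1.49 (adjusted p = 0.00129), and among the 8 libraries low in Y-linked RNA it was -1.54 (adjusted p = 0.0173). Among those 8, Igfbp3 was at 53.6 and 30.7 TPM in cisplatin-treated FAN1KO kidneys and at 178 and 81.2 TPM in cisplatin-treated wild-type kidneys.

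The 3 genes whose pattern over the 12 libraries was most like that of Igfbp3 were Kdr, Esm1 and Tmem204 (Pearson r of log2(TPM + 1) 0.98, 0.98 and 0.97). Kdr, a VEGF receptor, and Esm1 are genes of endothelium. The 6 endothelial markers summed to 43.5 to 159 TPM in wild-type saline, 45.9 to 196 in FAN1KO saline, 47.7 to 192 in wild-type cisplatin and 25.4 to 85.5 in FAN1KO cisplatin kidneys. All 6 had a difference below 0 between the genotypes under cisplatin (median -1.01), but none of the 6 was called and none was at 0 in any library. Vegfa, the ligand of Kdr, fell by 0.73 (SE 0.12, adjusted p = 0.0033), from 106 ± 7.68 to 64.0 ± 9.29 TPM. The part of endothelial RNA in the Igfbp3 levels was not tested.

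Igfbp7, a secreted protein of the same superfamily, was by far the most abundant member. It was at 2030, 1982 and 1581 TPM in wild-type saline kidneys and 1074, 1976 and 1960 TPM in FAN1KO saline kidneys. With cisplatin the values were 1177, 2298 and 2089 TPM for the wild-type and 1810, 1843 and 1645 TPM for the FAN1KO group. The groups overlapped in all 4 comparisons. The difference between the genotypes under cisplatin was -0.01 (SE 0.28, adjusted p = 0.976). The gene overlaps Polr2b, which ran from 22.2 to 34.2 TPM, and Gm34648.

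Glb1, which encodes the lysosomal beta-galactosidase stained as a senescence marker, was at 40.1, 34.9 and 73.6 TPM in wild-type saline kidneys and 66.0, 30.0 and 64.4 TPM in FAN1KO saline kidneys. Under cisplatin it was at 67.0, 30.2 and 32.7 TPM in wild-type kidneys and 38.4, 37.1 and 85.1 TPM in FAN1KO kidneys. The groups overlapped in all 4 comparisons, and the library high in Y-linked RNA was the highest of its group each time. The difference between genotypes under cisplatin was 0.29 (SE 0.45, adjusted p = 0.671) and that with cisplatin in FAN1KO kidneys was -0.02 (SE 0.45, adjusted p = 0.972). Glb1 overlaps Tmppe, at 5.85 to 9.44 TPM, and Gm30254.

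Il6, the cytokine interleukin 6, was at the limit of detection throughout. No library held more than 4 reads of it, and the 3 FAN1KO saline kidneys held none. The reads over each group were 2 in wild-type saline, 6 in wild-type cisplatin and 5 in FAN1KO cisplatin kidneys, which correspond to 0.0175, 0.0722 and 0.0705 TPM. At this depth no difference in Il6 was detectable, and it was not in the main test. Without the filter on low values the difference between the genotypes under cisplatin was -0.0014 (SE 0.048, adjusted p = 1).

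**Figure D2:**
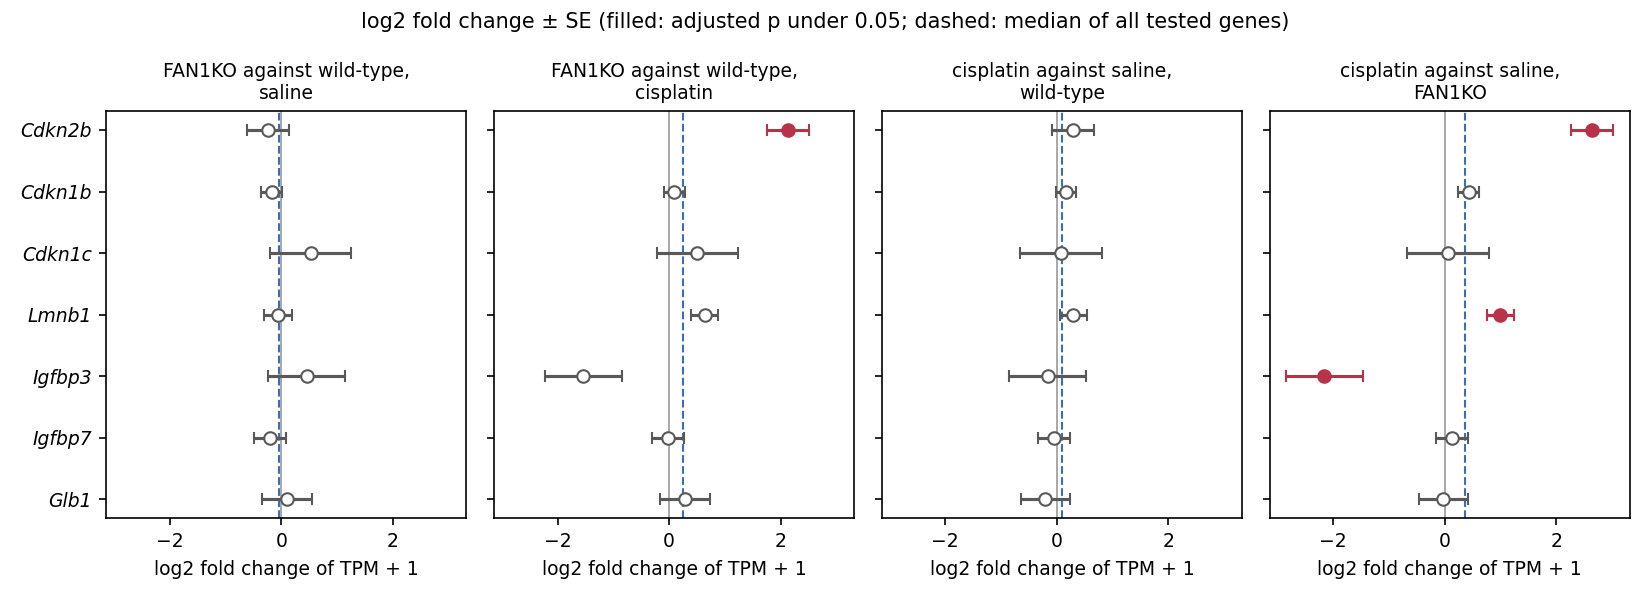
Difference in log2(TPM + 1) (horizontal axes) of the 7 tested members in the 4 comparisons, with the SE as bars. Filled points have an adjusted p under 0.05, and dashed lines give the median over all genes tested, 0.24 for the genotypes under cisplatin and 0.37 for cisplatin against saline in FAN1KO kidneys. Cdkn2b is filled in both of these, and Lmnb1 and Igfbp3 in the latter.

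By comparison, 1 of the 7 tested members was called between the genotypes under cisplatin, Cdkn2b, where 23.9% of all genes tested were called. Cdkn2b and Lmnb1 were the 2 tested members whose libraries lay wholly above those of the wild-type kidneys, and 35.7% of all genes did so. With cisplatin in FAN1KO kidneys 3 of 7 were called, Cdkn2b and Lmnb1 higher and Igfbp3 lower, where 39.8% of all genes were called, 34.9% higher and 4.9% lower. The groups did not overlap for 4 of the 7, the same 3 and Cdkn1b, and for 54.9% of all genes. The genome-wide split leaned on the scaling, with 2931 genes higher and 654 lower between the genotypes under cisplatin and 1405 and 1153 under median-ratio scaling. The median over the 7 members was 0.29 between the genotypes under cisplatin and 0.13 with cisplatin in FAN1KO kidneys, beside 0.24 and 0.37 over all genes.

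Between the genotypes under saline limma called 0 of 7 members, where 0.768% of all genes were called. An unadjusted p under 0.05 was seen for 0 of 7 members and for 1255 of all 14972 genes. The members' differences there ran from -0.24 for Cdkn2b to 0.52 for Cdkn1c. With cisplatin in wild-type kidneys 0 of 7 members were called, where 0.0601% of all genes were called. The unadjusted p was under 0.05 for 0 of 7 members and for 449 of all 14972 genes. Their differences ran from -0.21 for Glb1 to 0.30 for Lmnb1. The voom fit of recovered reads also called 0 members in both. The test of whether the cisplatin response differed between the genotypes called 1 of 7, Cdkn2b, where 6.24% of all genes were called. For Igfbp3 and Lmnb1 that difference was -1.99 (SE 0.98, adjusted p = 0.234) and 0.70 (SE 0.35, adjusted p = 0.236), which did not pass the threshold. With the Y-linked covariate both passed, Igfbp3 at -1.98 (adjusted p = 0.00407) and Lmnb1 at 0.70 (adjusted p = 0.021), where 31.6% of all genes were called. Igfbp3 also passed among the 8 libraries low in Y-linked RNA (-2.12, adjusted p = 0.0366, where 16.3% were called) and with the covariate under median-ratio scaling (-2.31, adjusted p = 0.00238, where 19.1% were called).

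In order of median TPM over the 12 libraries the members ran Igfbp7 (1902), Igfbp3 (69.0), Cdkn1c (47.2), Cdkn1b (44.2), Glb1 (39.2), Lmnb1 (5.04), Cdkn2b (1.51), Cdkn2a (0.0773) and Il6 (0.0184). Igfbp3, Cdkn1c, Cdkn1b and Glb1 overlapped in range and cannot be ordered beyond their spread. In cisplatin-treated FAN1KO kidneys Cdkn2b, at 7.45 to 16.4 TPM, reached the range of Lmnb1, at 7.95 to 11.0 TPM, which in the other 3 groups lay above it in every library.

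The libraries high in Y-linked RNA were also set apart for these genes. Cdkn2b, Cdkn1b, Cdkn1c, Lmnb1, Igfbp3 and Igfbp7 were lowest in that library, and Glb1 highest, in all 4 groups. Over all genes tested the same held in the low direction for 41.5% and in the high direction for 4.4%. Glb1 was thus on the side that few genes took. On the log2(TPM + 1) scale the gap to the mean of the other 2 libraries of the group ran from -1.75 to -1.40 for Igfbp3, from -1.95 to -1.35 for Cdkn1c and from 0.57 to 1.15 for Glb1. For Cdkn1b it ran from -0.57 to -0.15 and for Igfbp7 from -0.90 to -0.15. With the Y-linked level as a covariate, limma gave a slope per log2 unit of -0.43 for Igfbp3 (adjusted p = 0.000289), -0.45 for Cdkn1c (adjusted p = 0.000386) and 0.26 for Glb1 (adjusted p = 0.0014). The term called all 7 tested members and 55.8% of all genes. Under median-ratio scaling it called 43.2% of all genes, and Cdkn1b, Igfbp7 and Lmnb1 were no longer called (adjusted p = 0.363, 0.0878 and 0.0760). The same libraries were the deepest of their groups under saline in both genotypes and under cisplatin in wild-type kidneys, and the part of depth was not tested.

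**Figure D3:**
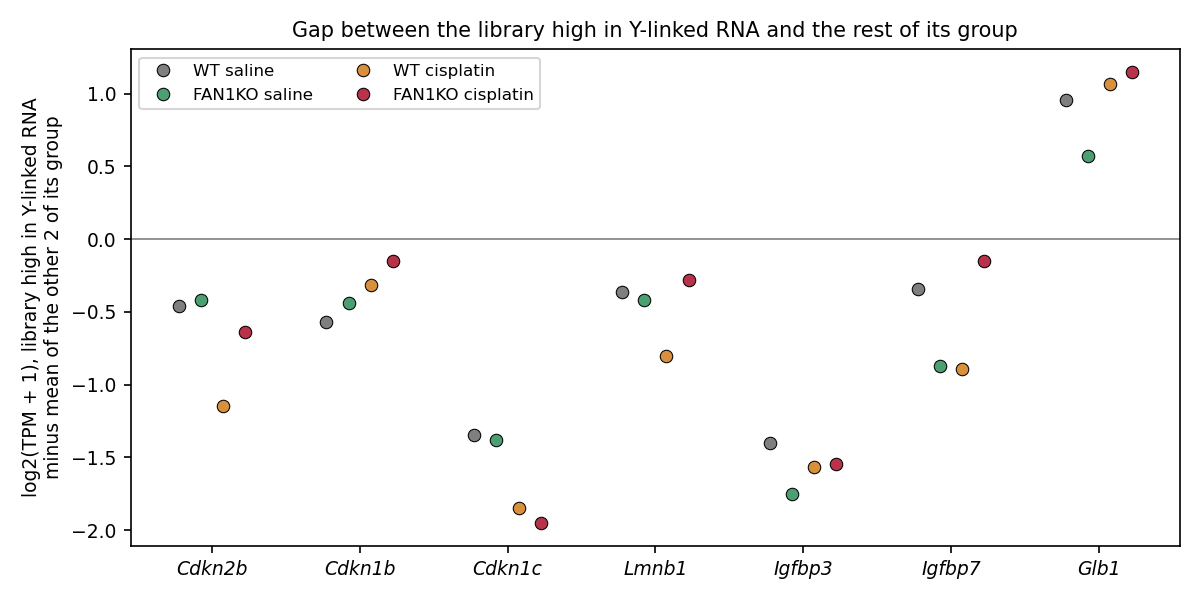
Difference in log2(TPM + 1) (vertical axis) between the library high in Y-linked RNA and the mean of the other 2 libraries of its group, for the 7 tested members. Each point is 1 group, and the horizontal line is at 0. Igfbp3 and Cdkn1c lie at -1.35 or below in all 4 groups, and Glb1 lies at 0.57 or above.

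Among the CDK inhibitors outside the set, Cdkn1a, which encodes the p53 target p21, had a larger change than Cdkn2c and Cdkn2d. It was at 6.88, 9.98 and 8.13 TPM in wild-type saline kidneys and 5.68, 6.92 and 8.53 TPM in FAN1KO saline kidneys. With cisplatin the values were 56.8, 99.2 and 169 TPM for the wild-type and 442, 529 and 224 TPM for the FAN1KO group. It rose with cisplatin in wild-type kidneys, where no tested member was called, by 3.43 (SE 0.39, adjusted p = 0.0222), and in FAN1KO kidneys by 5.56 (SE 0.39, adjusted p = 3.41e-05). The wild-type call was lost without any 1 of wild-type saline replicates 1, 2 and 3 or wild-type cisplatin replicates 2 and 3, where 0 of all genes were called with cisplatin in wild-type kidneys. Between the genotypes under cisplatin it rose by 1.92 (SE 0.39, adjusted p = 0.007). Of the 7 CDK inhibitors of both families 6 were tested, and 2 of them, Cdkn2b and Cdkn1a, were higher between the genotypes under cisplatin. Over all genes tested 19.6% were higher. Cdkn2c and Cdkn2d, the remaining INK4 genes, rose with cisplatin in FAN1KO kidneys by 1.00 (SE 0.16, adjusted p = 0.00134) and 0.60 (SE 0.21, adjusted p = 0.0441), and neither passed under median-ratio scaling (0.59, adjusted p = 0.0895, and 0.20, adjusted p = 0.364). The Cdkn2d call was also lost in 7 of 12 fits that leave out 1 library, namely replicate 1 of wild-type saline, all 3 of FAN1KO saline, replicate 2 of wild-type cisplatin and replicates 1 and 2 of FAN1KO cisplatin.

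Of 11 genes of cyclin D, CDK4/6 and RB, 3 were higher and 0 lower between the genotypes under cisplatin, with a median of 0.48. Over all genes tested 19.6% were higher and 4.37% lower, which is the background for this and the following lists. Under median-ratio scaling 1 of the 11 was higher and 1 lower. E2f1, a transcription factor held by RB, rose by 0.92 (SE 0.23, adjusted p = 0.016), and did not pass without wild-type cisplatin replicate 1 (adjusted p = 0.0595) or FAN1KO cisplatin replicate 1 (adjusted p = 0.0672), nor under median-ratio scaling (adjusted p = 0.0511). Of 6 tested genes of p27 turnover 2 were higher, and 1 under median-ratio scaling, with a median of 0.19. Cks1b, the cofactor with which the ligase subunit SKP2 recognises p27, rose by 1.48 (SE 0.23, adjusted p = 0.00217), from 7.91 ± 2.12 to 23.5 ± 3.59 TPM. Of 10 genes of Polycomb and other regulators of the Ink4 locus 5 were higher and 0 lower, and 4 under median-ratio scaling, with a median of 0.43. Id1, which inhibits the ETS factors that drive p16Ink4a, rose by 1.67 (SE 0.38, adjusted p = 0.0115), and did not pass without FAN1KO cisplatin replicate 1 (adjusted p = 0.0532). Its mean was 102 ± 19.6 TPM in FAN1KO saline and 109 ± 32.7 TPM in FAN1KO cisplatin kidneys, against 41.0 ± 10.7 and 35.5 ± 16.4 TPM in the wild-type groups.

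Among 10 nuclear lamina genes 2 were higher and 0 lower between the genotypes under cisplatin, near the 19.6% of all genes, with a median of 0.40. Under median-ratio scaling 1 was higher, with a median of 0.12. Lmna, which encodes lamins A and C, rose by 1.25 (SE 0.15, adjusted p = 0.000586), from 49.5 ± 8.67 to 119 ± 19.8 TPM. Lmnb2, the other B-type lamin, was at 9.87 ± 1.65 TPM in wild-type and 10.7 ± 1.13 TPM in FAN1KO kidneys under cisplatin (adjusted p = 0.685). Of 12 genes of IGF-binding proteins and the IGF axis 1 was higher and 1 lower, with a median of -0.36, below the 0.24 of all genes. Igfbp5, a matrix-bound IGF-binding protein, fell by 1.69 (SE 0.41, adjusted p = 0.0148), from 112 ± 61.3 to 31.1 ± 2.73 TPM, and its libraries lay wholly below those of the wild-type kidneys. Igfbp2 rose by 1.57 (SE 0.38, adjusted p = 0.0149), from 1.43 ± 0.773 to 6.63 ± 3.57 TPM. The Igfbp2 call was lost without wild-type cisplatin replicate 1, FAN1KO cisplatin replicate 1 or FAN1KO cisplatin replicate 2 (adjusted p = 0.0565, 0.0679 and 0.0607). Igfbp1, Igfbp4 and Igfbp6 were at 17.8 ± 4.90, 727 ± 117 and 4.42 ± 1.18 TPM in cisplatin-treated FAN1KO kidneys and at 22.5 ± 14.2, 985 ± 165 and 11.8 ± 14.4 TPM in wild-type kidneys, and none of them was called.

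Of 17 lysosomal glycosidases and partners of beta-galactosidase 5 were higher and 0 lower between the genotypes under cisplatin, with a median of 0.29, and 1 was higher under median-ratio scaling. Hexa, a beta-hexosaminidase subunit, had the largest called change, 0.88 (SE 0.29, adjusted p = 0.0492), and lost the call in 9 of 12 fits that leave out 1 library (adjusted p up to 0.176), all but those without replicate 1 or 3 of FAN1KO saline or replicate 2 of wild-type cisplatin. It was also lost without the filter on low values and under median-ratio scaling (adjusted p = 0.0679 and 0.0554). Of 17 genes of the IL-6 family and its signalling 14 were tested and 5 were higher and 0 lower, with a median of 0.50. Under median-ratio scaling 4 were higher and 2 lower, with a median of 0.27. Il6, Il11 and Osm, 3 of its ligands, did not pass the filter on low values. Clcf1, another ligand of the family, rose by 2.67 (SE 0.52, adjusted p = 0.00571), from 6.83 ± 3.85 to 45.6 ± 17.7 TPM. The IL-6 receptor genes Il6ra and Il6st were at 3.09 ± 1.69 and 34.4 ± 4.92 TPM in cisplatin-treated FAN1KO kidneys and 1.98 ± 1.21 and 32.5 ± 5.09 TPM in wild-type kidneys, and neither was called.

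Of 26 other genes of the senescence-associated secretory phenotype 22 were tested. Between the genotypes under cisplatin 11 were higher and 1 lower, the same counts as under median-ratio scaling, with a median of 1.30. With cisplatin in FAN1KO kidneys 16 were higher and 1 lower, with a median of 2.03. Cxcl1, a chemokine that attracts neutrophils, rose by 3.02 (SE 0.63, adjusted p = 0.00797) between the genotypes, from 8.63 ± 6.08 to 65.7 ± 28.6 TPM. Spp1, which encodes osteopontin, rose by 2.84 (SE 0.83, adjusted p = 0.0327), and lost the call without wild-type cisplatin replicate 1 or without FAN1KO cisplatin replicate 1 or 2 (adjusted p = 0.116, 0.115 and 0.0833). The lower gene was Vegfa.

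**Figure D4:**
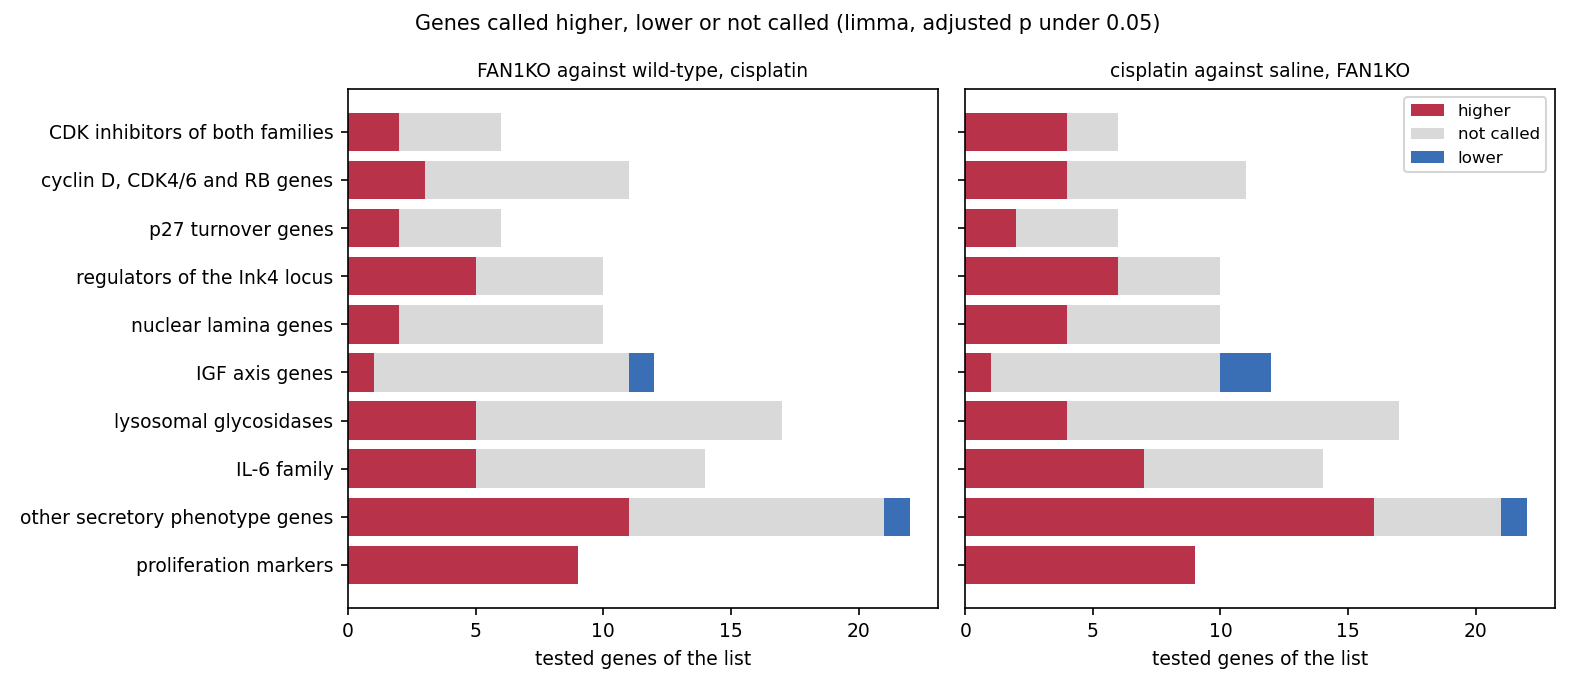
Number of tested genes (horizontal axes) called higher, called lower or not called in each list of related genes, between the genotypes under cisplatin and with cisplatin in FAN1KO kidneys. All 9 tested proliferation markers are higher in both, where 19.6% and 34.9% of all genes tested are higher. The IGF axis and the other secretory genes are the lists with lower genes.

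Markers of injury and of some other cell types moved in the same kidneys as Cdkn2a, Cdkn2b and Lmnb1, and those of further cell types had no call. All 4 markers of injured tubule were higher between the genotypes under cisplatin, and their summed TPM was 778 to 1155 in FAN1KO cisplatin kidneys against 6.86 to 148 in the other 9. Of 6 proximal tubule markers 4 were lower, with sums of 2478 to 4269 TPM in FAN1KO cisplatin kidneys against 5042 to 7582 in the others. Of 4 collecting duct markers 2 were higher, and 1 under median-ratio scaling, with a median of 0.99 and sums of 1297 to 1906 TPM in FAN1KO cisplatin kidneys against 370 to 914 in the other 9. Of 2 distal convoluted tubule markers Pvalb fell by 4.63 on the log2 scale (SE 0.63, adjusted p = 0.0012). The other, Slc12a3, had a difference above 0 that was not called. Their sums overlapped, at 251 to 622 TPM in FAN1KO cisplatin and 385 to 877 TPM in the other 9 kidneys. Of 6 macrophage markers 1 was higher, and 0 under median-ratio scaling, with sums of 186 to 457 TPM in FAN1KO cisplatin, 66.7 to 217 in wild-type cisplatin, 43.5 to 113 in FAN1KO saline and 64.7 to 113 in wild-type saline kidneys. None of these markers was at 0 in any library. Of 5 tested lymphocyte markers 1 was higher, and 0 under median-ratio scaling. No tested marker of thick ascending limb (3), podocyte (5), endothelium (6), fibroblast and mural cells (6) or neutrophil (2) was called between the genotypes under cisplatin. The part of these cells in the Cdkn2b, Cdkn2a and Lmnb1 differences was not tested.

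The genes most like Cdkn2b over the 12 libraries were Pdgfa, Dbnl and Klf5 (Pearson r 0.99 each), and those most like Lmnb1 were Igsf8, Pik3r5 and Pdlim4 (r 0.99 each). Synpo, a podocyte gene, and Galnt10 were among those most like Cdkn1c (r 0.97 each). For Cdkn1b they were Epsti1, Zbtb10 and Bbs12 (r 0.97 each), and for Igfbp7 Itm2a, Nsg1 and Tmem107 (r 0.96, 0.95 and 0.95). The nearest genes to Glb1 were Ppcs, Vil1 and Txndc17, with a lower r of 0.89 each, and Vil1 is a brush border gene. The 12 points share their groups and the split in Y-linked RNA, so these values describe likeness over these libraries. Among the members themselves the highest r was that of Cdkn2b and Lmnb1, 0.94, and the lowest that of Cdkn1c and Glb1, -0.73.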

How the data were processed

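Whole-kidney RNA was extracted with a column kit and sequenced as paired reads of the 12 kidneys. The authors deposited 1 table of TPM per NCBI Gene number, each library summing to 1000000. Per the labels, the build was mm10 and limma was used, and the aligner, annotation and counter are not given in the sources used here. Of the 27179 gene numbers, 1904 had no symbol in the RefSeq tables used. Every one of 232991 values above 0 came out as a whole read count within 0.02 reads, a limit that was wider for the largest counts. These reads gave the depth and an alternative voom fit.

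Tests were made with limma 3.58.1 (R 4.3.3, mean-variance trend) on log2(TPM + 1), with 4 group means over all 12 libraries, for 14972 genes with at least 1 TPM in at least 3 libraries. P-values were adjusted by the Benjamini-Hochberg method over all genes tested, at a threshold of 0.05. Single members were also tested by the two-sided exact permutation test (scipy 1.17.1). Nothing in the labels ties libraries to litters or batches. On simulated data with 200 genes changed 2-fold between the genotypes under cisplatin, 187 were recovered with 12 of the unchanged genes called, and 38 of 200 were recovered at 1.5-fold. The simulated spread between libraries was the same for all genes and held no split in Y-linked RNA, and no gene with few reads was changed. These shares therefore do not carry over to members with a wide spread, such as Igfbp3 and Cdkn1c (SE 0.69 and 0.73). The members and the gene lists were chosen with earlier results of these data known. The named genes were all members, the largest called rise and fall of each list between the genotypes under cisplatin (2 of each for the secretory list), and fixed relatives of the members. Alternatives were the replicate block, a pseudocount of 0.1, no filter, median-ratio scaling, no trend, a Y-linked covariate, voom, only the 6 libraries compared, and leaving out each library. Of the genes most like a member, 1 is not reported here.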

Additional observations from a re-analysis of the deposited data

Results flagged for a closer look

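The response to cisplatin differed between FAN1KO and wild-type kidneys by the interaction term of limma for Cdkn2b, by 2.36 on the log2 scale (adjusted p = 0.0326). The same test passed for 6 of the 22 other genes named, beside 6.24% of all genes tested. Cks1b, Lmna, Vegfa and Cdk1 were named for their large change between the genotypes under cisplatin, which this test shares, so the count is no evidence about the relatives as a group. It gave 1.57 for Cks1b (adjusted p = 0.0242), 1.44 for Lmna (adjusted p = 0.00815), -0.81 for Vegfa (adjusted p = 0.0282) and 1.39 for Cdk1 (adjusted p = 0.0409). For the CDK inhibitors Cdkn1a and Cdkn2c it gave 2.13 (adjusted p = 0.0472) and 1.01 (adjusted p = 0.033). Cdk1, Cdkn1a and Cdkn2c did not pass under median-ratio scaling (adjusted p = 0.0928, 0.0619 and 0.278). Of the 12 fits that leave out 1 library, the call was lost in 8 for Cdkn2b, 4 for Cks1b, 7 for Vegfa, 9 for Cdk1, 10 for Cdkn1a and 9 for Cdkn2c, and in 0 for Lmna. Groups of 3 libraries are too small for a test of single libraries that stand apart.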

How the results depend on the processing

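Cdkn2b kept its direction and its call between the genotypes under cisplatin and with cisplatin in FAN1KO kidneys under every alternative tried, with differences of 1.74 to 2.43 and 2.34 to 2.86 when each library was left out. The count of members called between the genotypes under cisplatin was 1, and rose to 2 without the filter (Cdkn2a added) and with voom (Lmnb1 added), and to 3 with the Y-linked covariate (Lmnb1 and Igfbp3 added). It was also 3 in both settings chosen after seeing the data, the 8 libraries low in Y-linked RNA and the covariate with median-ratio scaling. The count for the difference in response was 1, and 0 with a pseudocount of 0.1 or voom, 2 without the filter, 3 with the covariate, 2 in the 8 libraries low in Y-linked RNA and 2 for the covariate with median-ratio scaling. It ran from 0 to 1 when each library was left out. With cisplatin in FAN1KO kidneys the count stayed between 2 and 4, and in the other comparisons at 0. Except where a library was left out, the cause of these moves was not tested.

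Whether replicate numbers pair the kidneys could not be read from the values. Same-numbered libraries deviated together less than others did (mean correlations of -0.24 to -0.14 against 0.081 to 0.14). In every comparison, however, the libraries high in Y-linked RNA had different numbers, which lowers the correlations of same-numbered libraries whether or not they are paired. With the replicate block the members called for the difference in response fell from 1 to 0 (Cdkn2b, adjusted p = 0.0523), and no other count of members changed. The block also ended that call for Vegfa, Cdk1, Cdkn1a and Cdkn2c (adjusted p = 0.0576, 0.0785, 0.0725 and 0.0524), but not for Cks1b and Lmna (adjusted p = 0.0474 and 0.0283). It ended the calls of Hexa between the genotypes under cisplatin (adjusted p = 0.0554), of Cdkn2d with cisplatin in FAN1KO kidneys (adjusted p = 0.075) and of Cdkn1a with cisplatin in wild-type kidneys, where 0 of all genes were called. Over all genes, the block lowered the genes called for the difference in response from 782 higher and 153 lower to 351 and 73, while the Y-linked covariate raised those called between the genotypes under cisplatin from 2931 and 654 to 6035 and 1288.

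Directions of uncalled members turned in some fits. Between the genotypes under cisplatin, Cdkn1b was -0.18 under median-ratio scaling and -0.18 under that scaling with the covariate added, Igfbp7 was 0.0021 with the covariate, and Glb1 was -0.029 with the covariate and median-ratio scaling. When each library was left out, Cdkn1b ran from -0.011 to 0.17, Cdkn1c from -0.18 to 1.16, Igfbp7 from -0.31 to 0.17 and Glb1 from -0.10 to 0.64. With cisplatin in FAN1KO kidneys, median-ratio scaling gave -0.36 for Cdkn1c and -0.29 for Igfbp7, and the covariate with that scaling -0.31 and -0.29. The 8 libraries low in Y-linked RNA gave -0.11 for Igfbp7. When each library was left out, Cdkn1c ran from -0.63 to 0.71, Igfbp7 from -0.16 to 0.28 and Glb1 from -0.41 to 0.18. Depth limits Cdkn2a and Il6, which had at most 23 and 4 reads in a library.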

Other observations

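Of the 6 CDK inhibitors tested, 1 was called between the genotypes without cisplatin, where 0.768% of all genes were called. It was Cdkn2c, which encodes the INK4 protein p18. Cdkn2c was at 19.6, 22.5 and 22.8 TPM in wild-type saline kidneys and at 11.6, 9.42 and 13.8 TPM in FAN1KO saline kidneys. It fell by 0.86 on the log2 scale (SE 0.16, limma adjusted p = 0.044), and did not pass under median-ratio scaling (-0.81, adjusted p = 0.217). Under cisplatin the groups overlapped, at 17.8 to 26.7 TPM in wild-type and 22.8 to 24.6 TPM in FAN1KO kidneys. Igfbp6 was at 15.9, 18.4 and 11.5 TPM in wild-type saline kidneys and at 5.07, 2.83 and 2.73 TPM in FAN1KO saline kidneys, a difference of -1.85 (SE 0.65) that did not pass the threshold (adjusted p = 0.376).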
